A study of Mus musculus with 9 samples.

Results

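Genes of the citrate cycle and of the reactions that feed it and drain it were examined in RNA-seq values of RAW264.7 cells, a mouse macrophage-like leukemia line. The 31 genes were listed by symbol and matched to the Ensembl identifiers of the deposited values through GENCODE M21, and all 31 were found among the 28137 rows. The groups compared were 3 kinds of transfection, with 3 libraries in each group. The cells received control siRNA (NC), SFRP2 siRNA (libraries titled siRNA-1 to siRNA-3) or RAB6A siRNA (libraries titled siRAB6-1 to siRAB6-3). Per the labels, the siRNA was given at 60 nM for 6 h in DMEM, complete medium followed for 12 h, and lipopolysaccharide (LPS) was then present at 100 ng/ml for 24 h, in the NC cells as well. There was no group without LPS and none without siRNA. The study's methods name another siRNA concentration, reagent and medium and add interferon-γ, and the labels were followed here. The labels do not say whether the 3 libraries of a group came from separate cultures, or whether the titles siRNA-1 to siRNA-3 stand for different siRNAs, so the p-values measure the spread between these libraries, which may be technical.

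In the citrate cycle, acetyl-CoA from the pyruvate dehydrogenase complex is joined to oxaloacetate by citrate synthase, and the carbon is oxidized in steps back to oxaloacetate while NADH is formed. Citrate can also leave the mitochondrion through the carrier Slc25a1 and be cleaved in the cytosol by Acly, which supplies acetyl-CoA for lipid synthesis and for acetylation of histones. In macrophages exposed to LPS, cis-aconitate is also turned into itaconate by Acod1 (also known as Irg1), and this metabolite inhibits succinate dehydrogenase. Anaplerosis is the refilling of the cycle, for example from pyruvate by Pcx or from glutamate by Glud1 and the transaminases Got1 and Got2.

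The depth recovered from the values was 41608379 to 47149258 reads per library in the NC group, 34743304 to 40562562 in the SFRP2 siRNA group and 32758729 to 37833882 in the RAB6A siRNA group. The least expressed member, Pcx, rested on at least 344, 257 and 237 reads per library in these groups. Sfrp2 itself was listed at a mean FPKM (reads corrected for gene length and library depth) of 0.0213 in NC and 0.0401 in the SFRP2 siRNA libraries, close to the detection limit, so it gave no check of those labels. Rab6a was 24.3, 27.3 and 25.5 in NC and 21.2, 20.7 and 20.4, 1.24-fold lower, in the RAB6A siRNA libraries (log2 fold change -0.31, SE 0.06, adjusted p = 0.0024). In that comparison 36.5% of the 12712 genes tested passed an adjusted p of 0.05 as lower, and 74.1% in either direction. The difference thus did not set Rab6a apart from other genes. Of 10 macrophage markers, 9 had a mean FPKM of at least 0.5, and only Mertk was near 0. Their summed FPKM was 4582 to 5050 in NC, 4054 to 4383 with SFRP2 siRNA and 3979 to 4142 with RAB6A siRNA. The single markers went in both directions with RAB6A siRNA. Lyz2 went from a mean of 872.2 in NC to 213.6, Csf1r from 73.6 to 27.0, Spi1 from 130.4 to 62.9, Fcgr1 from 66.6 to 39.9 and Cd68 from 1850 to 1682. Cd14 went from 1679 to 1943, Ptprc from 18.3 to 20.6 and Itgam from 23.1 to 24.8, and Adgre1 was 56.3 in both groups. The 5 LPS-response genes summed to 1907 to 2086, 1830 to 1912 and 1832 to 2016. Lymphocyte markers summed to at most 0.0572, endothelial markers to at most 0.589, fibroblast markers to at most 2.46 and epithelial markers to at most 2.83 in any library.

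All 31 genes were expressed in the NC libraries. Acod1 stood far above the others, at a mean FPKM of 2458, and made up 75.0% to 75.3% of the summed FPKM of the 31 genes. It was the row with the 14th highest FPKM in each NC library. Mdh2, the mitochondrial malate dehydrogenase, came next at 87.4 ± 3.55, followed by Acly at 57.9 ± 0.938 and Dld at 56.3 ± 4.44 (SD, n = 3). The values of Acly and Dld overlapped. From Idh3g at 43.6 to Mdh1 at 33.6, the libraries of 8 genes formed a run in which neighbours in the order overlapped, except for Got2 and Glud1, Idh3b and Cs, and Cs and Ogdh. Pcx, the pyruvate carboxylase, was lowest at 1.85 ± 0.271. Replicates were close, with a median coefficient of variation over the genes of 4.06% in NC, 3.98% with SFRP2 siRNA and 5.38% with RAB6A siRNA.

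**Figure D1:**
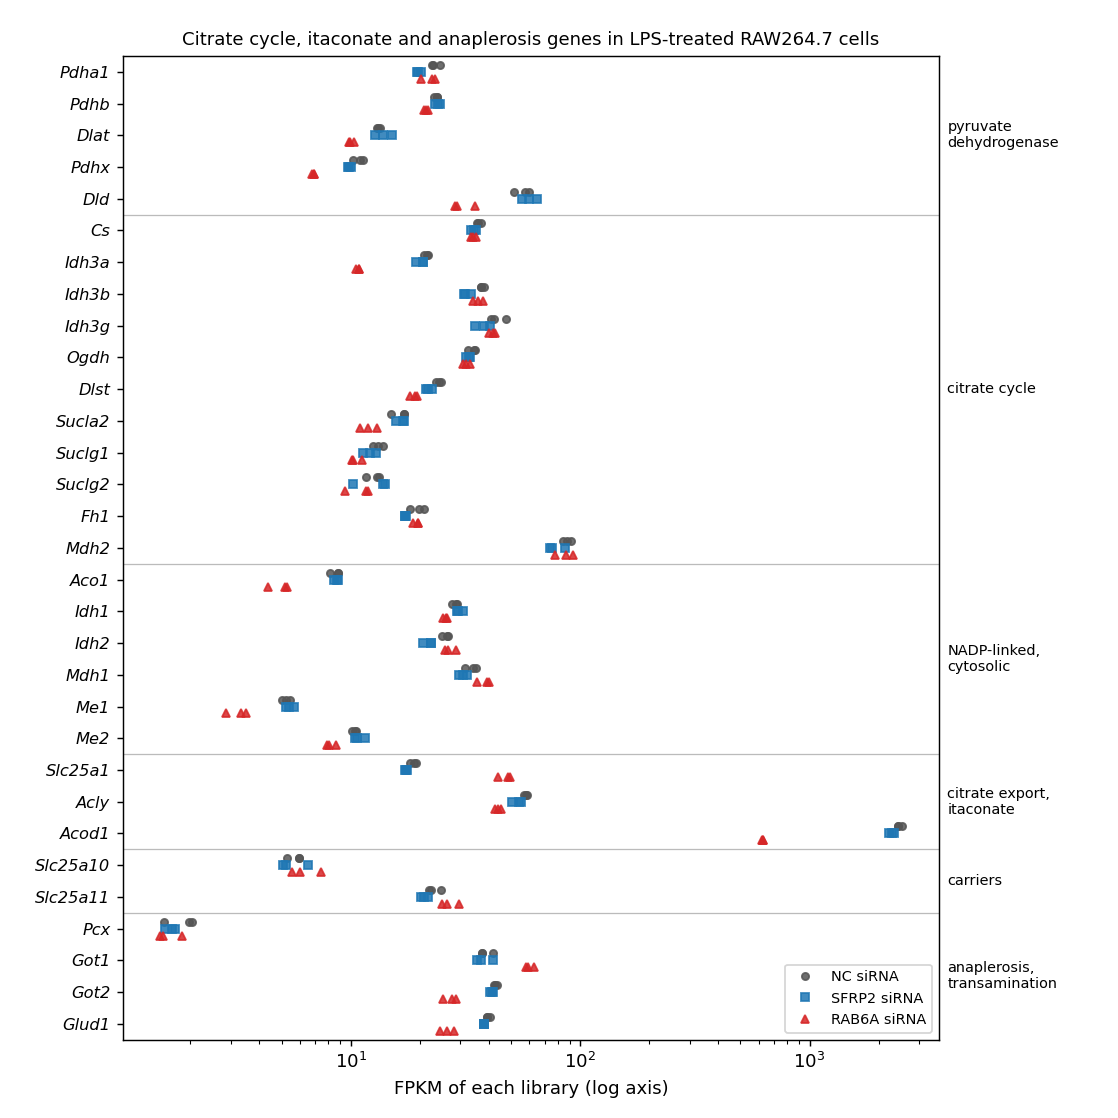
FPKM of each of the 31 genes in each of the 9 libraries on a log axis, grouped by role, with 1 point per library. Acod1 lies at 2422 to 2530 in NC and at 619.1 to 629.2 with RAB6A siRNA, while most of the other genes lie between 5 and 100 in all groups.

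Against NC, the genes differed little with SFRP2 siRNA and in both directions with RAB6A siRNA. In the fit across all genes (limma on log2(FPKM + 0.1), a scale that understates the change of low genes), 0 of the 31 passed an adjusted p of 0.05 with SFRP2 siRNA, where 0% of the 12017 genes tested passed it. With RAB6A siRNA, 20 of the 31 passed it, 4 higher and 16 lower, where 74.1% of the 12712 genes tested passed it, 37.6% higher and 36.5% lower. The share of the 31 genes that passed was thus not above that of all genes, and most of those that passed were lower. Their median log2 fold change was -0.18, against 0.03 over all genes tested. When each library was corrected for GC content and exon length, 6 genes were higher and 13 lower, and the median was -0.02, as it was over all genes. A log2 fold change over 1 in size together with the adjusted p was reached by 2 members, Acod1 and Slc25a1, where 30.1% of all genes tested reached it, 17.3% higher and 12.8% lower. Of the 31 estimates 25 were below 0, against 48.9% of all genes, and in 21 genes the RAB6A siRNA libraries did not overlap those of NC, 17 of them lower, where this held for 77.4% of all genes and 38.2% as lower.

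**Figure D2:**
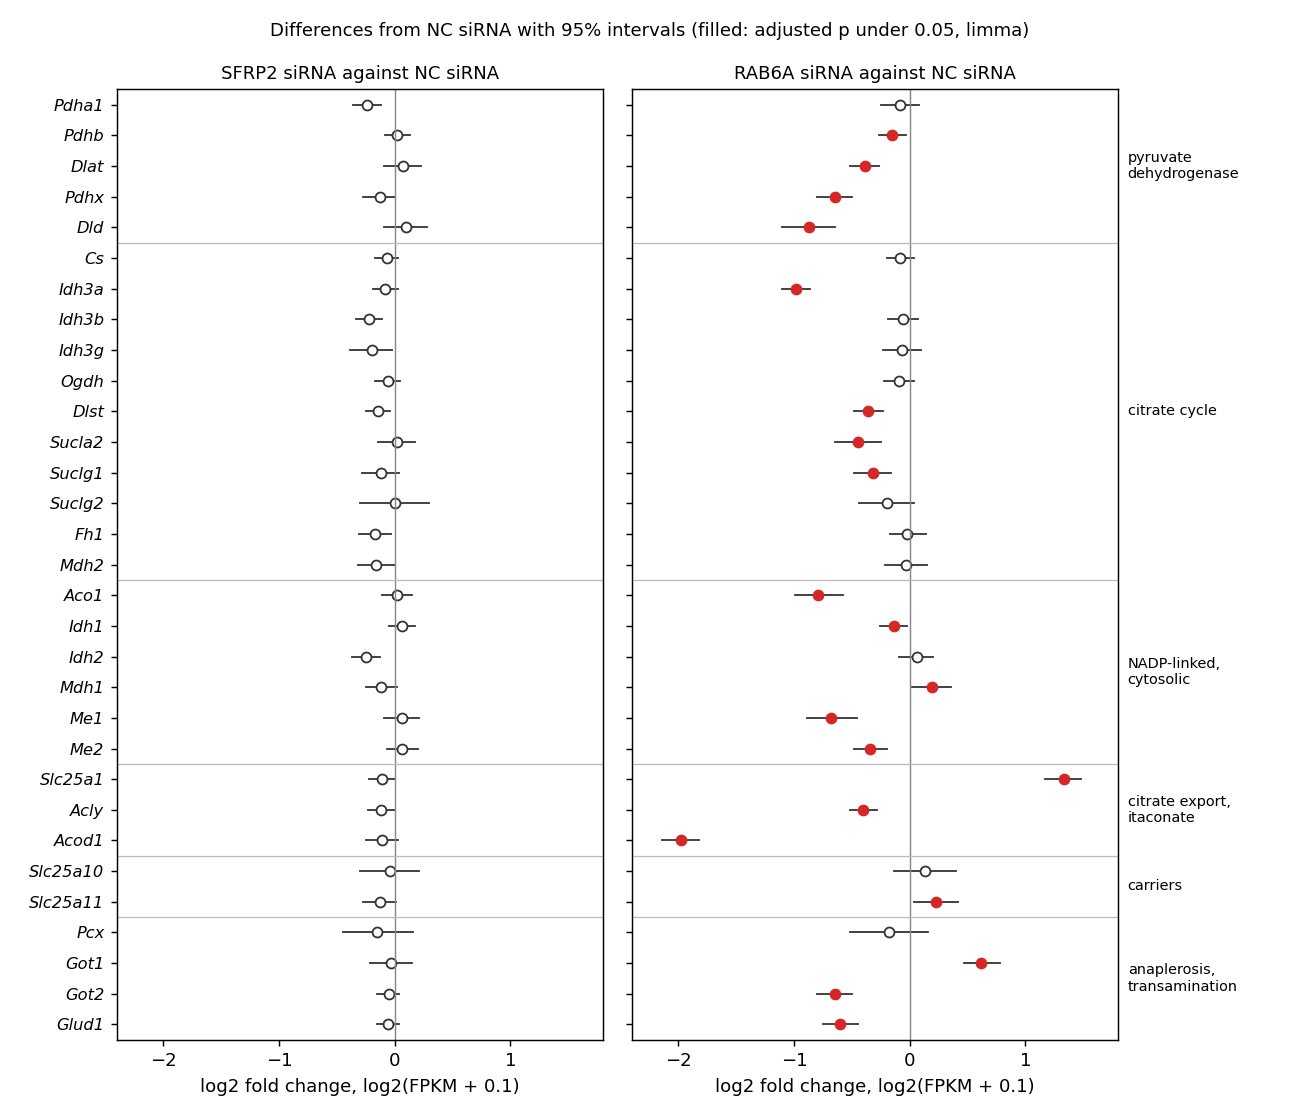
Log2 fold change of the 31 genes against NC with SFRP2 siRNA (left) and RAB6A siRNA (right), with bars for the 95% interval from limma and filled points for an adjusted p under 0.05. With SFRP2 siRNA all estimates lie between -0.25 and 0.10 and none is filled, and with RAB6A siRNA they reach from -1.98 for Acod1 to 1.33 for Slc25a1.

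Acod1, which forms itaconate, was the member of the list that fell most with RAB6A siRNA. Its FPKM was 2422, 2422 and 2530 in the NC libraries, 2333, 2292 and 2211 with SFRP2 siRNA and 629.2, 624.9 and 619.1 with RAB6A siRNA. The RAB6A siRNA libraries were thus far below all others and close to each other. The decrease was 3.94-fold (log2 fold change -1.98, SE 0.07, adjusted p = 1.13e-06), and leaving out any single library kept the log2 fold change between -1.99 and -1.96. In the same libraries Nos2, the inducible nitric oxide synthase that is also induced by LPS, was 340.1 ± 24.8 in NC and 391.6 with RAB6A siRNA, which did not pass the test (log2 fold change 0.20, adjusted p = 0.0665). Of the other LPS-response genes read, Tnf went from a mean of 1050 in NC to 658.7 and Il6 from 95.9 to 49.8. Ptgs2 went from 491.7 to 789.4 and Il1b from 14.97 to 17.37. Within a library, where the scaling between libraries plays no part, the ratio of Acod1 to Nos2 was 7.28, 7.58 and 6.88 in NC and 1.49, 1.57 and 1.74 with RAB6A siRNA. Acod1 still held 44.8% to 46.2% of the summed FPKM of the 31 genes with RAB6A siRNA, and its place among all rows went from 14 to between 64 and 75. In these bulk samples, fewer cells with the transcript and less transcript per cell cannot be told apart. Of the macrophage markers, Lyz2, Csf1r, Spi1, Fcgr1 and Cd68 had lower means with RAB6A siRNA, and Cd14, Ptprc and Itgam higher ones. The part of these markers in the change of Acod1 was not tested.

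With SFRP2 siRNA, the values of Acod1 lay below those of NC without overlap, but the difference was small. The log2 fold change was -0.11 with a 95% interval from -0.25 to 0.03 (adjusted p = 0.346), so a decrease beyond that interval was not seen. Under quantile normalization the estimate was 0.03.

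Slc25a1, the mitochondrial citrate carrier, was the member of the list that rose most with RAB6A siRNA. Its FPKM was 19.3, 18.1 and 18.9 in NC, 17.6, 17.2 and 17.4 with SFRP2 siRNA and 48.5, 49.6 and 43.8 with RAB6A siRNA. It was 2.52-fold higher than in NC with RAB6A siRNA (log2 fold change 1.33, SE 0.06, adjusted p = 2.94e-06). Acly, the ATP citrate lyase that acts on the exported citrate, fell in the same comparison, from 57.8, 56.9 and 58.8 to 42.4, 45.0 and 43.9 (log2 fold change -0.40, SE 0.05, adjusted p = 0.000224, and -0.25 under quantile normalization or with the correction for GC content and length). The ratio of the carrier to the lyase was therefore 0.325 ± 0.0082 in NC, 0.326 ± 0.0154 with SFRP2 siRNA and 1.08 ± 0.076 with RAB6A siRNA. In an exact two-sided permutation test this ratio had p = 0.1 between RAB6A siRNA and NC, the smallest p that 3 libraries against 3 allow, and an adjusted p of 0.157 over the 58 sums, shares and ratios compared in this way. The 17 ratios were chosen after the values were seen, and all exact p-values given below as 0.1 have the same adjusted value.

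The sequences before the starts of the members that changed most, and of the transaminase pair described further on, are shown to place the motifs searched. Each runs from 250 bases before to 50 bases after the RefSeq start on the mouse genome GRCm38.p6, from 5′ to 3′ on the strand of the gene. Capitals mark a CCAAT box (CCAAT or, on the other strand, ATTGG) or an E-box (CACGTG). Acod1 is shown as chr14:103046762-103047061 on the + strand, Slc25a1 as chr16:17928170-17928469, Got1 as chr19:43524556-43524855 and Got2 as chr8:95888352-95888651, each on the - strand.
Acod1: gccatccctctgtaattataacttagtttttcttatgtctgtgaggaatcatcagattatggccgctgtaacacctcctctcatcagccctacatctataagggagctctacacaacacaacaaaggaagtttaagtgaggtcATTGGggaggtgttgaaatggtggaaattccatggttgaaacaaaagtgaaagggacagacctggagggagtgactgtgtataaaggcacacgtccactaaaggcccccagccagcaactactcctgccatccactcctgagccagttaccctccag
Slc25a1: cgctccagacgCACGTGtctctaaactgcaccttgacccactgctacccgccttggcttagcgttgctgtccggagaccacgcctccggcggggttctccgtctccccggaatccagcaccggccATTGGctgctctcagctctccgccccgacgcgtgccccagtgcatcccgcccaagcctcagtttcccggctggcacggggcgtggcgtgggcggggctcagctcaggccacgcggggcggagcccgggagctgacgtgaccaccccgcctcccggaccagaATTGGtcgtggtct
Got1: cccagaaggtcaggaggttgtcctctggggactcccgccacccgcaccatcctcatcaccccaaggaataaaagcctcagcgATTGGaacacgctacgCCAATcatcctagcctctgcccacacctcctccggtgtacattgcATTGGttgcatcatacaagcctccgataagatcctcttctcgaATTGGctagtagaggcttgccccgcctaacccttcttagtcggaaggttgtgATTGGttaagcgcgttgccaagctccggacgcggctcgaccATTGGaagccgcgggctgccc
Got2: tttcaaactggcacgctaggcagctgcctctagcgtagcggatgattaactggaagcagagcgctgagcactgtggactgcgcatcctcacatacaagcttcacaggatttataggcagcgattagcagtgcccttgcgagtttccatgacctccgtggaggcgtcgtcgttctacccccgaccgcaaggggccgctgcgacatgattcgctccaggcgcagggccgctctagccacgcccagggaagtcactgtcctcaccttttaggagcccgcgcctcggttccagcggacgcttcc

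Acod1 has a single CCAAT match in this window, at -107 from the start. Slc25a1 has an E-box at -239 and CCAAT matches at -125 and 37. Got1 has 6 CCAAT matches, at -168, -152, -107, -64, -12 and 30, and Got2 has 0. Of 32851 promoters in the RefSeq set, 26 (0.0791%) hold 6 or more CCAAT matches, a number chosen for Got1 after its value was seen. Promoters of 29 of the 31 genes were in the set, all but Idh3a and Me2. A CCAAT match was found in 19 of the 29 (65.5%), against 41.1% of all genes with a promoter and 43.3% of the 8483 tested genes with a promoter. CACGTG was found in Ogdh, Slc25a1 and Pcx (10.3%, against 12.1% of the tested genes), GAAANNGAA, an interferon-response-like motif, in Suclg1 and Suclg2 (6.9% against 8.95%), and GGGANTTTC, a κB-like motif, in 0 (against 1.17%). TGACNNNGC, the core of the antioxidant response element, was found in 6 genes (20.7% against 17%), and GCGCATGCG, an NRF1-like motif, in Ogdh (3.45% against 4.53%). Acod1 held neither GAAANNGAA nor GGGANTTTC in these 300 bases, and variants of these letters were not searched. All motifs were read on both strands, and a match is a description of the letters only.

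Of the pyruvate dehydrogenase complex, which turns pyruvate into acetyl-CoA, 4 of 5 genes fell with RAB6A siRNA, where 36.5% of all genes tested fell. The largest decrease was that of Dld, the dihydrolipoamide dehydrogenase shared with the oxoglutarate dehydrogenase complex. Dld was 57.7, 59.8 and 51.3 in NC, 60.0, 64.7 and 55.6 with SFRP2 siRNA and 28.4, 29.1 and 34.8 with RAB6A siRNA, 1.83-fold lower than in NC (log2 fold change -0.87, SE 0.10, adjusted p = 0.00011). Pdhx, which binds Dld to the core of the complex, went from 11.4, 10.2 and 10.95 to 6.92, 6.9 and 6.76, with a log2 fold change of -0.65 (-0.43 with the correction for GC content and length). Dlat, the acetyltransferase of the core, went from 13.5, 13.1 and 13.1 to 9.82, 10.4 and 9.91, with a log2 fold change of -0.39 (-0.17 with that correction). The groups did not overlap for these 3 genes. The pair that forms the first enzyme of the complex was nearer to NC. Pdhb, its beta subunit, was 23.6 ± 0.387 in NC and 21.3 ± 0.399 with RAB6A siRNA (log2 fold change -0.15, adjusted p = 0.0274). This call was lost without NC-1, NC-2, NC-3, siRAB6-1 or siRAB6-2 (adjusted p from 0.0548 to 0.0856), and with the correction for GC content and length the estimate was 0.07. It was also lost under quantile normalization (-0.02, adjusted p = 0.662) and with the replicate number as a block (adjusted p = 0.0751). Pdha1, the alpha subunit, did not pass the test (log2 fold change -0.08, 95% interval from -0.25 to 0.08).

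The summed FPKM of the complex was 127.2 ± 3.25 in NC, 127.6 ± 5.48 with SFRP2 siRNA and 91.0 ± 4.99 with RAB6A siRNA (exact two-sided permutation test against NC, p = 1 and p = 0.1). Relative to Pdhb within each library, Pdhx was 0.460 in NC and 0.323 with RAB6A siRNA, and Dlat was 0.560 and 0.472, both without overlap.

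Among the 11 other enzymes of the cycle, 4 fell with RAB6A siRNA and 0 rose, a share of lower genes close to the 36.5% of all genes tested. Idh3a, the catalytic subunit of the NAD-dependent isocitrate dehydrogenase, was 21.5, 21.6 and 20.8 in NC, 20.6, 20.6 and 19.3 with SFRP2 siRNA and 10.5, 10.8 and 10.8 with RAB6A siRNA. It was 1.99-fold lower than in NC (log2 fold change -0.98, SE 0.05, adjusted p = 3.81e-06). The other subunits of the same enzyme did not pass the test. Idh3b had a log2 fold change of -0.06 (95% interval from -0.19 to 0.07) and Idh3g of -0.07 (from -0.23 to 0.10). With the correction for GC content and length, Idh3b passed as higher (0.14, adjusted p = 0.0256). The ratio of Idh3a to Idh3b was 0.580, 0.583 and 0.548 in NC and 0.310, 0.302 and 0.287 with RAB6A siRNA, while that of Idh3g to Idh3b was 1.17 ± 0.0804 and 1.16 ± 0.0284 (exact two-sided permutation test, p = 0.1 and p = 0.9). The subunits of this enzyme thus differed unequally from NC, with Idh3a apart from the others.

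Of the genes of the next steps, Dlst, the succinyltransferase of oxoglutarate dehydrogenase, went from 24.2, 23.7 and 24.8 in NC to 18.2, 19.4 and 19.1 with RAB6A siRNA (log2 fold change -0.36, SE 0.05, adjusted p = 0.000594, and -0.20 with the correction for GC content and length). Ogdh, the first enzyme of that complex, had a log2 fold change of -0.09 and did not pass the test, and the ratio of Dld to Ogdh was 1.66 ± 0.184 in NC and 0.968 ± 0.14 with RAB6A siRNA. Of the succinate-CoA ligase, Sucla2, the ADP-forming beta subunit, fell from 17.0, 17.1 and 15.0 to 10.96, 11.9 and 13.0 (log2 fold change -0.45, SE 0.09, adjusted p = 0.00202, and -0.25 with that correction). Suclg1, its alpha subunit, fell from 13.2 ± 0.645 to 10.5 ± 0.567 (log2 fold change -0.32, adjusted p = 0.00333), a call that was lost with it (-0.09, adjusted p = 0.295). Suclg2, the GDP-forming beta subunit, had a log2 fold change of -0.20 with an interval from -0.44 to 0.04.

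Citrate synthase, fumarase and the mitochondrial malate dehydrogenase stayed near NC. Cs was 36.1 ± 0.707 in NC and 34.1 ± 0.834 with RAB6A siRNA (log2 fold change -0.08, 95% interval from -0.20 to 0.04, adjusted p = 0.176). Under median-of-ratios scaling it passed as lower (-0.13, adjusted p = 0.0486), and with the correction for GC content and length it passed as higher (0.13, adjusted p = 0.0428). Fh1 had a log2 fold change of -0.02 with an interval from -0.17 to 0.14 (0.18, adjusted p = 0.043, with the same correction), and Mdh2 of -0.03 with an interval from -0.21 to 0.15. The summed FPKM of the 11 enzymes was 345.7 ± 8.54 in NC, 315.9 ± 10.9 with SFRP2 siRNA and 311.5 ± 9.28 with RAB6A siRNA, both below NC without overlap (exact two-sided permutation test, p = 0.1 for each).

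Cytosolic and NADP-linked enzymes, grouped here with the mitochondrial NAD-linked Me2, changed in both directions with RAB6A siRNA. Of these 6 genes 1 was higher and 4 were lower, where 37.6% of all genes tested were higher and 36.5% lower. Aco1, the cytosolic aconitase that also acts as an iron-regulatory protein, was 8.79, 8.76 and 8.12 in NC, 8.46, 8.81 and 8.74 with SFRP2 siRNA and 4.36, 5.15 and 5.30 with RAB6A siRNA (log2 fold change against NC -0.79, SE 0.09, adjusted p = 0.000129). Me1, the cytosolic malic enzyme that forms NADPH, fell from 5.46, 5.0 and 5.21 to 2.87, 3.50 and 3.33 (log2 fold change -0.68, SE 0.09, adjusted p = 0.000329). Me2, the NAD-linked mitochondrial malic enzyme, fell less, from 10.4 ± 0.196 to 8.18 ± 0.36 (log2 fold change -0.34, adjusted p = 0.0013), a call that was lost with the replicate number as a block together with the correction for GC content and length (-0.15, adjusted p = 0.0541). The ratio of Me1 to Me2 was 0.503 in NC and 0.395 with RAB6A siRNA, without overlap.

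Mdh1, the cytosolic malate dehydrogenase, was 31.4, 34.3 and 35.2 in NC and 39.5, 40.2 and 35.4 with RAB6A siRNA, a difference just past the threshold (log2 fold change 0.19, adjusted p = 0.0445). It was lost without NC-1, NC-2, siRAB6-1 or siRAB6-2 (adjusted p from 0.0795 to 0.151) and without a filter on low values (0.0702). The Mdh1 call was also lost under median-of-ratios scaling (0.14, adjusted p = 0.12) and with the replicate number as a block (adjusted p = 0.0847). Idh1, the cytosolic NADP-linked isocitrate dehydrogenase, was 28.4 ± 0.821 and 25.8 ± 0.571 (log2 fold change -0.14, adjusted p = 0.0424), and its call was lost without any library but siRAB6-3 (adjusted p from 0.0548 to 0.136). The Idh1 call was also lost under quantile normalization (adjusted p = 0.792), with the replicate number as a block (0.0847) and with voom on recovered reads (0.0652). Idh2, its mitochondrial counterpart, had a log2 fold change of 0.06 and did not pass. The ratio of Idh1 to Idh2 was 1.10 ± 0.0587 in NC, 1.37 ± 0.0507 with SFRP2 siRNA and 0.958 ± 0.0753 with RAB6A siRNA, and neither treatment overlapped NC (exact two-sided permutation test, p = 0.1 for each). This order depended on the correction for GC content and length, with which the log2 fold changes of Idh1 and Idh2 against NC were 0.00 and -0.02 with RAB6A siRNA and 0.02 and -0.13 with SFRP2 siRNA.

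Both dicarboxylate carriers of the list were close to NC. Slc25a11, the oxoglutarate-malate carrier, was 22.1, 22.4 and 24.7 in NC and 26.3, 29.8 and 25.1 with RAB6A siRNA (log2 fold change 0.23, adjusted p = 0.0339). The call was lost without NC-1, NC-2, siRAB6-1 or siRAB6-2 (adjusted p from 0.0562 to 0.106) and with the correction for GC content and length (0.11, adjusted p = 0.133). It was also lost without a filter (adjusted p = 0.0582), under median-of-ratios scaling (0.0683) and with the replicate number as a block (0.0659). Slc25a10, which exchanges malate or succinate for phosphate, had a log2 fold change of 0.13 with an interval from -0.14 to 0.40.

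The transaminases that swap amino groups between aspartate and glutamate moved apart with RAB6A siRNA. Got1, the cytosolic aspartate aminotransferase, was 37.4, 37.3 and 41.9 in NC, 37.2, 35.7 and 41.7 with SFRP2 siRNA and 59.1, 62.7 and 57.9 with RAB6A siRNA (log2 fold change against NC 0.62, SE 0.07, adjusted p = 9.26e-05). Got2, the mitochondrial form, was 42.6, 43.2 and 42.3 in NC, 41.9, 40.4 and 41.1 with SFRP2 siRNA and 25.2, 27.5 and 28.9 with RAB6A siRNA (log2 fold change against NC -0.65, SE 0.06, adjusted p = 5.82e-05). The ratio of Got1 to Got2 was 0.911 ± 0.0698 in NC, 0.928 ± 0.0749 with SFRP2 siRNA and 2.21 ± 0.18 with RAB6A siRNA. Reads of Got2 could be shared with its processed copy Got2-ps1, which was listed at a mean FPKM of 0.537 in NC and 0.214 with RAB6A siRNA. Glud1, the glutamate dehydrogenase, fell from 39.3, 39.4 and 40.5 to 24.4, 26.2 and 28.1 (log2 fold change -0.60, SE 0.06, adjusted p = 9.29e-05, and -0.38 with the correction for GC content and length). Pcx had a log2 fold change of -0.18 with an interval from -0.52 to 0.16. The 4 genes summed to 123.1 ± 3.03 in NC and 114.9 ± 4.26 with RAB6A siRNA, so that the opposite differences largely offset each other in the sum.

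**Figure D3:**
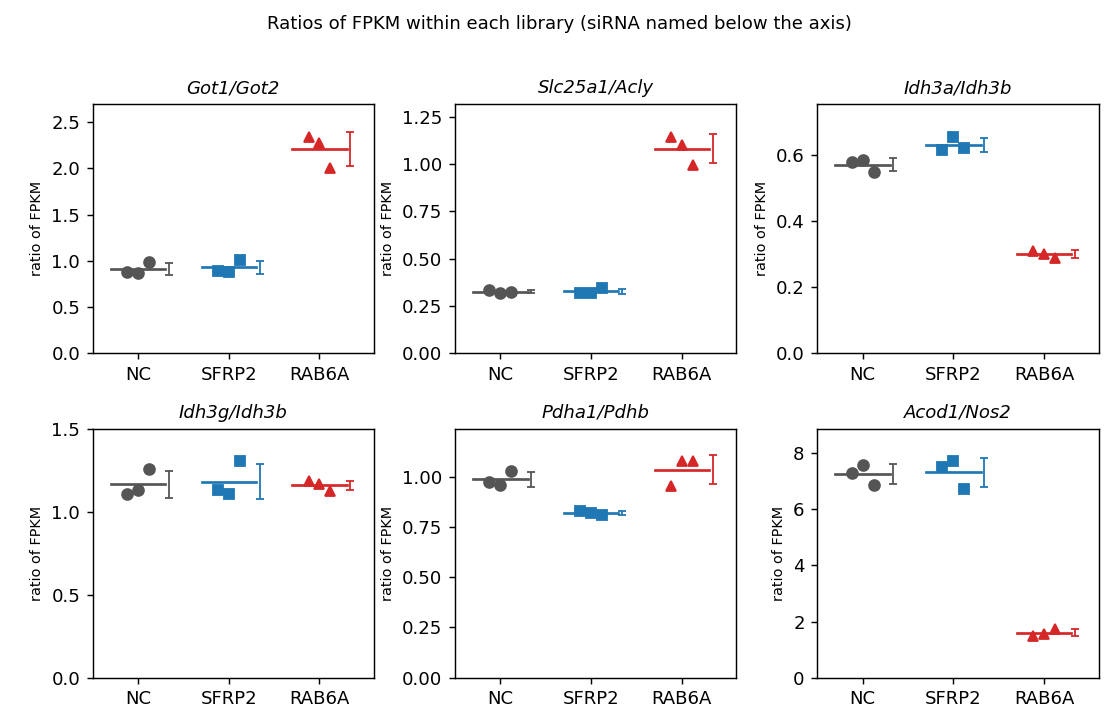
Ratios of FPKM within each library for 6 pairs of genes, with 1 point per library, a line at the group mean and a bar of 1 SD on either side (n = 3). With RAB6A siRNA, Got1/Got2 lies at 2.01 to 2.34 and Slc25a1/Acly at 0.996 to 1.14, above all NC values, Idh3a/Idh3b and Acod1/Nos2 lie below them, and Idh3g/Idh3b overlaps NC, while Pdha1/Pdhb is lower with SFRP2 siRNA.

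Summed over all 31 genes, the FPKM was 3272 ± 74.8 in NC, 3046 ± 70.8 with SFRP2 siRNA and 1374 ± 19.4 with RAB6A siRNA. Most of the last difference was Acod1. Without it the sums were 813.6 ± 12.6, 767.5 ± 11.2 and 749.4 ± 19.8, with both treatments below NC and no overlap (exact two-sided permutation test, p = 0.1 for each). These sums depend on the scaling between libraries, since all rows summed to 361817 to 372307 in NC and 399883 to 410877 with RAB6A siRNA. As shares of the library's summed FPKM, the members without Acod1 held 0.221% in NC, 0.209% with SFRP2 siRNA and 0.184% with RAB6A siRNA.

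With SFRP2 siRNA, 23 of the 31 genes had an estimate below 0, against 52.5% of all genes tested, and the median log2 fold change was -0.08 against -0.01. In 15 genes the SFRP2 siRNA libraries all lay below the NC libraries, and in 0 genes all above, where 13.9% of all genes tested lay apart below and 24.7% in either direction. An unadjusted p under 0.05 was reached by 10 genes, all lower, where 10.7% of all genes reached it as lower and 18.5% in either direction. The count of 10 fell to 3 without NC-3 and to 3 without siRNA-2, was 7 or 8 without each of the other libraries, and was 5 under quantile normalization. It was 8 under median-of-ratios scaling, 11 without a filter on low values and 12 with the replicate number as a block. With voom on recovered reads, 0 members passed the adjusted threshold and 9 had an unadjusted p under 0.05. The smallest adjusted p of a member was 0.165, and the smallest over all genes was 0.14. The estimates farthest from 0 without the correction for GC content and length were those of Idh2, Pdha1, Idh3b and Idh3g.

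Idh2 was 25.1, 26.3 and 26.6 in NC and 22.4, 20.7 and 22.3 with SFRP2 siRNA (log2 fold change -0.25, 95% interval from -0.37 to -0.13, adjusted p = 0.165). With the correction for GC content and length it was -0.13, nearer to 0 than Pdha1 at -0.27 and Idh3b at -0.23. Pdha1 was 22.6, 22.9 and 24.5 in NC and 19.4, 20.2 and 19.6 with SFRP2 siRNA (log2 fold change -0.24, interval from -0.36 to -0.12, adjusted p = 0.165), and its ratio to Pdhb was 0.989 ± 0.0376 and 0.822 ± 0.00974. Idh3b was 37.1, 37.1 and 38.0 in NC and 33.5, 31.5 and 31.1 with SFRP2 siRNA (log2 fold change -0.22, adjusted p = 0.165). These groups did not overlap, but none of the differences passed the adjustment. Fh1 had an estimate of -0.17, Mdh2 of -0.16 (-0.10 with the correction) and Dlst of -0.14, and the highest estimate was that of Dld at 0.10. No interval of a member reached below -0.45 or above 0.30.

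Across the genes with a known GC content, the log2 fold change with SFRP2 siRNA went along with GC content. Spearman's rho was -0.482 over 11903 genes and -0.39 over the 31, and it was 0.0785 over 12535 genes and 0.421 over the 31 with RAB6A siRNA. With exon length, rho over the same 11903 genes was 0.172 with SFRP2 siRNA, and over the 12535 genes it was -0.214 with RAB6A siRNA. Genes of a library are not independent points, and these values are descriptions. The median GC content of the 31 was 47.7%, against 49.2% over all genes. With the correction for GC content and length, the median with SFRP2 siRNA was -0.05 and 8 genes had an unadjusted p under 0.05. The correction takes GC content and exon length together, and the part of either in the differences was not tested beyond it.

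Compared with each other, the treatments differed in 23 of the 31 genes, 16 higher and 7 lower with SFRP2 siRNA than with RAB6A siRNA, where 73.4% of the 12764 genes tested differed, 35.8% higher and 37.6% lower. The split was 12 and 10 under quantile normalization and 11 and 8 with the correction for GC content and length. The median was 0.20, against -0.03 over all genes. Both comparisons with NC use the same NC libraries, so this direct comparison was used to set the treatments side by side. Acod1 was higher with SFRP2 siRNA by 1.87 on the log2 scale (SE 0.07, adjusted p = 2.4e-06), Dld by 0.97 and Idh3a by 0.90, and Slc25a1 was lower (-1.44, SE 0.06, adjusted p = 3.66e-06), as were Got1 (-0.65) and Mdh1 (-0.31). Idh2 was lower with SFRP2 siRNA than with RAB6A siRNA (-0.31, adjusted p = 0.00389), and this call was lost with the correction for GC content and length (-0.12, adjusted p = 0.109). Cs did not differ past the threshold (0.01, interval from -0.11 to 0.13), but with that correction it passed as lower with SFRP2 siRNA (-0.21, adjusted p = 0.00567).

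A further 40 genes of pyruvate, citrate cycle and glutamate metabolism were listed for the surroundings of these reactions. With RAB6A siRNA, 30 of them could be tested and 23 passed, 10 higher and 13 lower, a share near the 74.1% of all genes tested, with a median log2 fold change of -0.16. Of the 30, 2 reached the filter's mean FPKM of 0.5 in only one of the groups, and without them 22 of 28 passed, 9 higher and 13 lower. With SFRP2 siRNA, 0 of 29 passed, and 10 had an unadjusted p under 0.05, 3 higher and 7 lower, where 18.5% of all genes tested had one, 7.73% higher and 10.7% lower. The highest 4 of those that passed with RAB6A siRNA were Ass1, Acss2, Pdk1 and Asl. Ass1, the argininosuccinate synthase that uses aspartate, was 0.0896, 0.114 and 0.283 in NC and 1.35, 1.24 and 1.62 with RAB6A siRNA. It entered the test only through its level with RAB6A siRNA, so these values are given as a description. Asl, which splits argininosuccinate into arginine and fumarate, was 4.61, 4.83 and 5.29 and 8.67, 9.15 and 7.71 (0.78, adjusted p = 0.000128). Acss2, which makes cytosolic acetyl-CoA from acetate, was 0.523, 0.609 and 0.525 and 2.53, 2.31 and 2.17 (1.90, SE 0.14, adjusted p = 1.34e-05). Pdk1, a kinase that inactivates pyruvate dehydrogenase, was 2.93, 2.80 and 2.63 and 5.31, 4.86 and 4.65 (0.80, adjusted p = 8.35e-05).

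Among the lowest 4 were Pdpr and Pccb. Pdpr, the regulatory subunit of pyruvate dehydrogenase phosphatase, was 2.86, 2.97 and 2.40 in NC and 0.892, 1.04 and 0.795 with RAB6A siRNA (log2 fold change -1.50, SE 0.14, adjusted p = 4.87e-05). Pccb, a subunit of propionyl-CoA carboxylase, had a log2 fold change of -0.86 (SE 0.11, adjusted p = 0.000196). Of the succinate dehydrogenase subunits, chosen here after their values were seen, Sdhb was higher (0.57, adjusted p = 0.000541) and Sdha was lower (-0.50, adjusted p = 0.00033). Sdhd passed as lower (-0.19, adjusted p = 0.0392), but its libraries overlapped, at 56.74 to 62.92 in NC and 50.04 to 57.05 with RAB6A siRNA. Sdhc did not pass the test (0.03, 95% interval from -0.09 to 0.16).

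**Figure D4:**
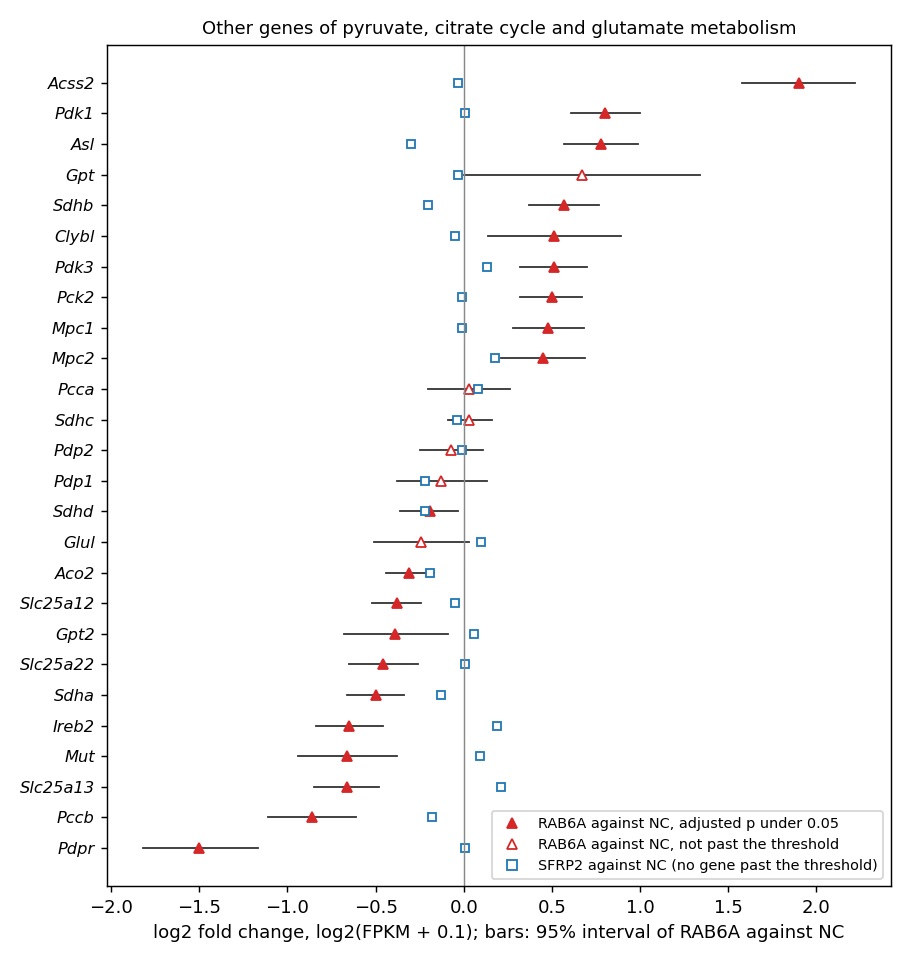
Log2 fold change of 26 of the further pathway genes with RAB6A siRNA against NC (triangles, with 95% intervals, filled for an adjusted p under 0.05) and with SFRP2 siRNA against NC (squares), without genes that reached the filter in only one of the groups. With RAB6A siRNA the estimates reach from -1.50 for Pdpr to 1.90 for Acss2, and none of the squares passed the threshold.

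Regulators of metabolic and LPS-response genes were read in the same libraries. Myc, which drives many genes of mitochondrial metabolism, was 93.0, 90.9 and 92.5 in NC, 94.1, 93.9 and 98.1 with SFRP2 siRNA and 6.32, 6.16 and 5.76 with RAB6A siRNA (log2 fold change against NC -3.90, SE 0.06, adjusted p = 1.55e-07). Irf1, an interferon-regulated factor, fell with RAB6A siRNA (log2 fold change -1.09, adjusted p = 2.88e-06), and Nfe2l2, the factor of the antioxidant response, rose (0.38, adjusted p = 0.000439). Hif1a did not pass the test with RAB6A siRNA (0.08, 95% interval from -0.06 to 0.21). With SFRP2 siRNA, the log2 fold change was -0.31 for Irf1 (adjusted p = 0.163), 0.06 for Nfe2l2 and 0.10 for Hif1a, and none passed. The part of these factors in the differences of the 31 genes was not tested.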

How the data were processed

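RNA-seq values of 9 RAW264.7 libraries were used. The deposited values are FPKM for each gene in each library, under Ensembl identifiers. The submitters' processing notes name HISAT2, featureCounts and Subread, and versions, genome build and annotation are not given in the sources used here. GENCODE M21 (GRCm38) gave symbol, exon length and GC content for 27533 of the 28137 identifiers, and 604 had none there. Multiplied by exon length, the FPKM of 27084 genes (98.4% of those named) fell within 0.03 of whole reads, which gave the depth and the reads per gene. Mdh1 was the only member without recovered reads. Intervals on differences cover the spread between libraries.

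Since the values are FPKM and not counts, the DESeq2 test of the study's methods was replaced by limma 3.58.1 in R 4.3.3 on log2(FPKM + 0.1), with eBayes and its trend option. Genes entered a comparison if their FPKM averaged 0.5 or more in its 6 libraries, and Benjamini-Hochberg adjustment ran over all genes tested. The thresholds were an adjusted p under 0.05 and, as in those methods, an absolute log2 fold change over 1. Sums and ratios of FPKM were compared with exact two-sided permutation tests in Python 3.11.15 with scipy 1.17.1. Groups were taken from the titles. Named genes were the 31 members, both targeted genes, and, of the further pathway genes, the 4 highest and 4 lowest log2 fold changes past the threshold against NC, with context genes (Myc, Nfe2l2, Hif1a, Nos2 and Irf1) where a sentence needed them. Some of the 4 lowest are not reported here. The members and lists were chosen with earlier results of these data known, and the ratios, the promoters shown and the count of 6 CCAAT matches after these values were seen. The limma step was tested on simulated data.

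Alternatives were a pseudocount of 1, no filter, median-of-ratios scaling, quantile normalization, the replicate number as a block, a correction for GC content and exon length (natural splines, 5 degrees of freedom each) (with and without the block), voom on recovered reads, and each library left out in turn. For the sums and for the count with the fold threshold, the alternatives were added after seeing the data. Promoters came from the RefSeq set for GRCm38.p6.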

Additional observations from a re-analysis of the deposited data

How the results depend on the processing

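The values are FPKM of 3 libraries per group, and estimates near 0 changed sign with the scaling or with the libraries used. With SFRP2 siRNA, 0 members passed the adjusted threshold under any alternative run. With RAB6A siRNA, 16 to 20 members passed, and Acod1, Slc25a1, Idh3a, Dld, Got1, Got2, Glud1, Aco1, Me1, Pdhx, Dlat, Dlst, Sucla2 and Acly passed with the same sign under each, though with the GC content and length correction Dlat, Dlst, Sucla2, Acly, Glud1 and Pdhx came nearer to 0 by over 1.5 times (-0.17, -0.20, -0.25, -0.25, -0.38 and -0.43). Of the 433 member values under alternatives in that comparison, 362 kept sign and call, 34 lost the call, 5 gained it and 32 changed sign. Where a call was lost or a sign changed, the cause was not tested.

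With SFRP2 siRNA against NC, signs changed in estimates near 0. Suclg2 was 0.00 with a pseudocount of 1, with quantile normalization and with voom, and 0.01 with median-of-ratios scaling. Idh2 kept its sign but was -0.13 with the GC content and length correction. Under quantile normalization Acod1 was 0.03 and Got1 0.02. With the GC content and length correction, with or without the block, Dld was -0.01, Ogdh 0.00, Sucla2 -0.05, Me2 0.00, Slc25a1 0.03, Slc25a10 0.10, Got1 0.06 and Got2 0.03. Leaving out each library gave -0.08 to 0.15 for Suclg2, -0.05 to 0.05 for Sucla2, -0.02 to 0.04 for Aco1, -0.09 to 0.03 for Got1, -0.15 to 0.02 for Slc25a10 and -0.03 to 0.04 for the log2 ratio of the summed pyruvate dehydrogenase genes.

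With RAB6A siRNA against NC, quantile normalization gave 0.05 for Pdha1, 0.09 for Cs, Idh3g and Ogdh, and 0.11 for Idh3b and Fh1. The GC content and length correction, with or without the block, moved the median of the members to -0.02 and gave 0.14 for Pdha1 and Idh3b, 0.07 for Pdhb, 0.13 for Cs, 0.05 for Idh3g and Ogdh, 0.02 for Suclg2, 0.18 for Fh1, 0.15 for Mdh2, 0.00 for Idh1 and -0.02 for Idh2. Leaving out each library gave -0.11 to 0.00 for Idh3g, -0.07 to 0.03 for Fh1 and -0.09 to 0.04 for Mdh2. Calls were gained by Suclg2 with voom (adjusted p = 0.0496), Idh2 (0.0262) and Pcx (0.0329) under quantile normalization, and Cs (0.0486) and Ogdh (0.0467) under median-of-ratios scaling. With the GC content and length correction without the block, Cs (0.0428), Idh3b (0.0256) and Fh1 (0.043) passed as higher. These are counted among the changes of sign. With the block, Idh3b still passed (0.0438), and Cs (0.0832) and Fh1 (0.0765) did not.

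With SFRP2 siRNA against RAB6A siRNA, the median of the members was 0.11 under quantile normalization, 0.02 with the GC content and length correction and 0.15 to 0.19 with each library left out. Quantile normalization gave -0.13 for Cs and -0.11 for Ogdh. The correction, with or without the block, gave -0.07 for Pdhb, -0.21 for Cs, -0.04 for Ogdh, -0.08 for Suclg1, -0.09 for Suclg2 and 0.07 for Slc25a10. Leaving out each library gave -0.01 to 0.03 for Cs and -0.03 to 0.12 for Pcx.

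The labels give the same replicate numbers in each group but no shared culture. Same-numbered libraries did not deviate together (correlations from -0.0847 to 0.0477), and not every library correlated best with its own number. With the replicate number as a block, 0 members passed for SFRP2 siRNA, 16 for RAB6A siRNA (20 without the block) and 20 between the treatments (23 without it).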
